A study of Rattus norvegicus with 12 samples.

Results

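The 10 genes described here are standard reporters of cell division: Mki67, Top2a, Cdk1, Ccnb1, Ccna2, Birc5, Mcm5, Mcm6, Pcna and Tyms. They were chosen by symbol, as the rows of the expression table that carry these names, and they are 10 of the 34525 genes listed. The values are FPKM, the fragments assigned to a gene scaled for its length and for library size. Rat brain was sequenced in 12 libraries. The thalamus and the RVM each gave 3 libraries from saline rats and 3 from CFA rats, which makes 4 groups. The thalamus is the forebrain relay for sensory signals, and the RVM, the rostral ventral medulla, is a brainstem region whose descending projections modulate pain. The series concerns persistent orofacial pain. Treatment is labelled 0.9% NS, taken here as saline, or CFA, which in pain research commonly means complete Freund's adjuvant, an emulsion that causes lasting local inflammation. The sources used here do not give strain, sex, age, dose, injection site or time after treatment. They also do not say that the libraries of a group are different animals. The p-values therefore reflect the spread among libraries, which may be technical.

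A dividing cell copies its DNA in S phase, prepares in G2 and separates its chromosomes in mitosis. E2F factors switch on the replication genes as cells enter S phase. Many mitosis genes are held silent in resting cells through a promoter element called the cell cycle genes homology region (CHR), often near CCAAT boxes that bind the factor NF-Y. Mature neurons do not divide, whereas microglia, the resident macrophages of the brain, and oligodendrocyte precursors can. In RNA of whole tissue, more or fewer cells of a type cannot be told apart from more or less RNA per cell.

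Promoter sequences come first, because E2F and CHR letters are the textbook marks of the replication and mitosis genes. They are taken from RefSeq on the rat build GRCr8 and run from 250 bases before to 50 bases after the annotated start, 300 bases in all, 5′ to 3′ on the strand of the gene. A promoter was matched for 9 of the 10 members, and Ccna2 had no entry in the sequences used here. Capitals mark the letters searched on both strands: E2F as TTTCCCGC, TTTCGCGC, TTTGCCGC or TTTGGCGC, CHR as TTTGAA or TTTAAA, and CCAAT, each shown as its reverse complement where it lies on the other strand. Printed are the 5 members whose thalamic difference passed when all 12 libraries were fitted together (below), and Tyms, the member with a lower mean in CFA thalamus. The intervals are chr1:199952544-199952843 on the minus strand for Mki67, chr10:84473044-84473343 on the minus strand for Top2a and chr20:19265043-19265342 on the plus strand for Cdk1. Mcm5 is at chr19:13488563-13488862 on the plus strand, Mcm6 at chr13:42404303-42404602 on the minus strand and Tyms at chr9:120776034-120776333 on the minus strand.
Mki67: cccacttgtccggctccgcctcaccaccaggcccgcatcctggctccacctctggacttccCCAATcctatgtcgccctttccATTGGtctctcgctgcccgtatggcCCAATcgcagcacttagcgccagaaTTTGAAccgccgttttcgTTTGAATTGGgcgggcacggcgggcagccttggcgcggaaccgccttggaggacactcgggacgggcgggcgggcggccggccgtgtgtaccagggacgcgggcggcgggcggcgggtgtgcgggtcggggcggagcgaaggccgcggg
Top2a: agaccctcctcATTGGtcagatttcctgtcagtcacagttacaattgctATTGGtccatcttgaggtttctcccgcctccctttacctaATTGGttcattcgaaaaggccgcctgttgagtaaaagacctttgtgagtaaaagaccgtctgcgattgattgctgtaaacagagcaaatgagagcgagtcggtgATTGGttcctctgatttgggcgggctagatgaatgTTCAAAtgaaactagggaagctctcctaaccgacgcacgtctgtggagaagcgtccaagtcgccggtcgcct
Cdk1: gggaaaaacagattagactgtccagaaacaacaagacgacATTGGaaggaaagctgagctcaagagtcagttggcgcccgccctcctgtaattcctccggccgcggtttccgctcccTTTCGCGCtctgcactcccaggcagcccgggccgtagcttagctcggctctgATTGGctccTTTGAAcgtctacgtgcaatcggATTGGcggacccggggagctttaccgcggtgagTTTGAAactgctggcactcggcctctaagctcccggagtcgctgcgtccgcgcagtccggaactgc
Mcm5: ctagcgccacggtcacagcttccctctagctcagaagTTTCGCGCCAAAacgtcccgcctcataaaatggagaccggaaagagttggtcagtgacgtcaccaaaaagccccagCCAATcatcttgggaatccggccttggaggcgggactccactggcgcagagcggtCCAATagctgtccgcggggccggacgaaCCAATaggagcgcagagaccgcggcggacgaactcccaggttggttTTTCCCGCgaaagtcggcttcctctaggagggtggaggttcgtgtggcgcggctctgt
Mcm6: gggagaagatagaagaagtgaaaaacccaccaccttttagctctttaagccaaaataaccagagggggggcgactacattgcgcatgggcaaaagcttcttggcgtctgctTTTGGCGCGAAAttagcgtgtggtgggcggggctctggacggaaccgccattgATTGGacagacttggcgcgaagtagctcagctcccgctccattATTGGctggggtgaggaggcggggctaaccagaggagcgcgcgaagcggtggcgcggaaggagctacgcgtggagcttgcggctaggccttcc
Tyms: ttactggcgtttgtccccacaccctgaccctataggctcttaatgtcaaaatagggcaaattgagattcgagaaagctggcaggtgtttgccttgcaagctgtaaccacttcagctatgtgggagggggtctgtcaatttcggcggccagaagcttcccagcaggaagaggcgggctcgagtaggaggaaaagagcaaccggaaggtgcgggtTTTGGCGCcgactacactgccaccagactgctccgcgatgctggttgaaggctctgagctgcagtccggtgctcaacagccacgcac

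CHR letters were found in 5 of the 9 promoters, those of Mki67, Top2a, Cdk1, Ccnb1 and Birc5, which all serve mitosis. Counted from the start as 0, they began at -117 and -99 in Mki67, at -22 in Top2a, at -72 and -16 in Cdk1, at -25 in Ccnb1 and at -8 in Birc5. E2F letters were found in 4 of 9: Cdk1 at -133, Mcm5 at -213, -209 and -8, Mcm6 at -139 and -135, and Tyms at -37. CCAAT on either strand was present in 8 of 9, all but Tyms. Among 33469 RefSeq promoters of this length, 2.14% held the E2F letters, 28.3% the CHR letters and 37.5% CCAAT. Some capitals run together: in Mki67 a TTTGAA overlaps an ATTGG, and in Mcm5 and Mcm6 E2F matches of opposite strands overlap. A match describes letters and was not tested as a binding site.

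All 10 members were above 0 in all 12 libraries, on 5 to 1155 reads per library, recovered from the FPKM values. Pcna far exceeded the others and made up 72.3% of their summed FPKM, and 8 of the 10 had a mean of at least 1 FPKM over all libraries. The group mean was highest in CFA thalamus for 8 members, all but Pcna and Tyms. Saline thalamus had the lowest group mean for 8 members, all but Ccnb1 and Tyms.

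**Figure D1:**
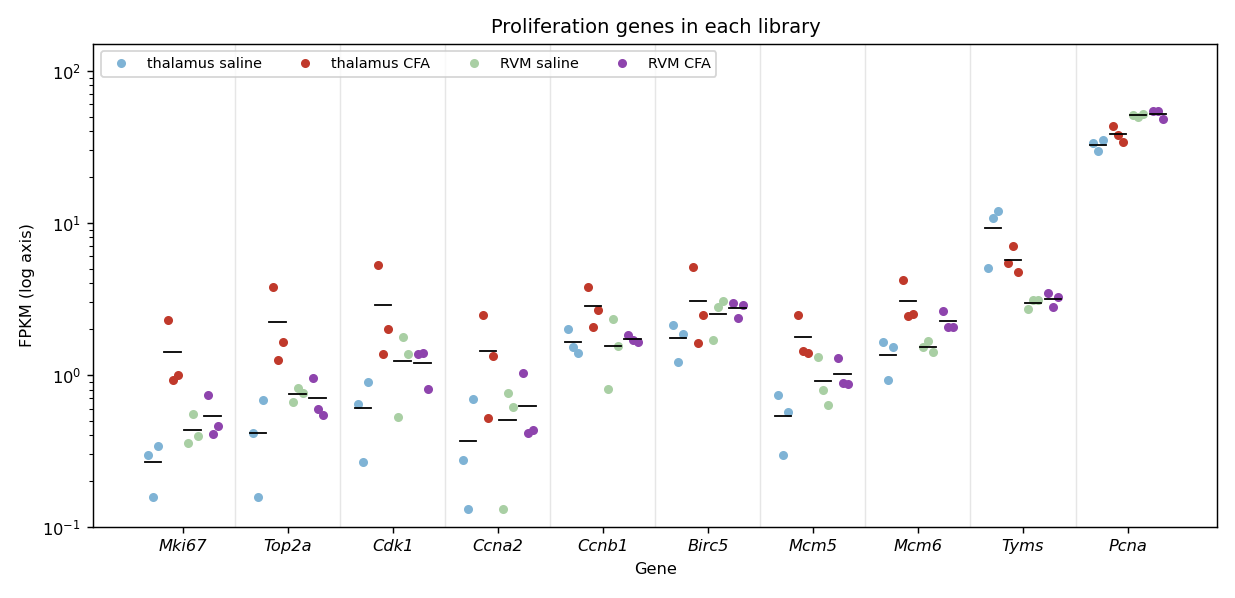
FPKM (log axis) of the 10 proliferation genes in each of the 12 libraries, with colours for the 4 groups and a black bar at each group's mean (n = 3). In thalamus the CFA points of Mki67, Top2a, Cdk1, Ccnb1, Mcm5 and Mcm6 lie above every saline point, and CFA library 1 is the highest of the 12 libraries for 8 genes.

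The first comparison asks how thalamus differs between CFA and saline rats. Mki67, Top2a, Cdk1, Ccna2 and Mcm5 had CFA means 3.30 to 5.33 times the saline mean, yet none of the 10 members passed the test. The test was limma on log2(FPKM + 0.1), with p adjusted over all genes by the Benjamini-Hochberg method and a threshold of 0.05. Over the 19520 genes tested, 3.34% were called higher and 0.251% lower. At an unadjusted p below 0.05, 7 members were higher and 0 lower, against 9.95% of all genes higher. In 6 members every CFA library lay above every saline library, and in 0 below. Over all genes 12.2% lay wholly above and 13.9% wholly below. Members and gene lists were chosen with earlier results of these data known, so such counts beside all genes are a description, not a test. A fit that took its spread from all 12 libraries called 5 members higher, Mki67, Top2a, Cdk1, Mcm5 and Mcm6, against 6.52% of all genes. Limma-voom on the recovered reads called 0 members, with adjusted p from 0.0713 for Mki67 upward.

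Mki67 encodes Ki-67, a nuclear protein of cycling cells that coats mitotic chromosomes. The table lists it as ENSRNOG00000028137 on chromosome 1, from 207993895 to 208020454. Its FPKM was 0.295, 0.158 and 0.342 in saline thalamus and 2.30, 0.923 and 0.993 in CFA thalamus, given here and below for libraries 1, 2 and 3. The groups did not overlap, and CFA library 1 was the highest. The log2 change was 1.97 ± 0.45 (SE, n = 3 per group), with a 95% interval of 0.88 to 3.05 and an adjusted p of 0.0816 by limma. In the fit of all 12 libraries the adjusted p was 0.0115.

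Top2a (ENSRNOG00000053047, chromosome 10, 86901007 to 86932154) encodes topoisomerase II alpha, which untangles replicated chromosomes. It measured 0.414, 0.156 and 0.681 FPKM in saline thalamus and 3.78, 1.25 and 1.64 FPKM in CFA thalamus. The groups were apart, and CFA library 1 was well above the other CFA libraries. Its log2 change was 2.16 ± 0.57 (SE), with an interval of 0.80 to 3.51 and an adjusted p of 0.117 by limma (0.0168 with all 12 libraries). Cdk1 (ENSRNOG00000000632, chromosome 20, 20576377 to 20591549) encodes the kinase that drives entry into mitosis. Its FPKM was 0.641, 0.265 and 0.899 in saline and 5.26, 1.38 and 2.01 in CFA, again without overlap and highest in CFA library 1. The log2 change of 1.98 ± 0.59 had an interval of 0.57 to 3.39 and an adjusted p of 0.157 by limma, and with all 12 libraries it passed narrowly, at 0.04998.

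The cyclins that activate this kinase were less evenly separated. Ccnb1, which encodes cyclin B1 (ENSRNOG00000058539, chromosome 2, 30783915 to 30791221), measured 2.003, 1.51 and 1.39 FPKM in saline and 3.80, 2.052 and 2.66 FPKM in CFA thalamus. The groups nearly touched, at 2.003 against 2.052, and the log2 change was 0.73 ± 0.28 (adjusted p = 0.239, limma). Ccna2 encodes cyclin A2, which serves in S phase and G2 (ENSRNOG00000015423, chromosome 2, 123275881 to 123282214). It measured 0.277, 0.132 and 0.690 FPKM in saline and 2.47, 0.523 and 1.32 FPKM in CFA, and the second CFA library fell within the saline range. The log2 change of 1.68 ± 0.67 had an adjusted p of 0.246 by limma. Ccna2 also lies wholly, over 6334 bases, inside the listed interval of Exosc9 on the opposite strand, which measured 12.9 to 18.4 FPKM. The kit is not stated to keep strand, so reads of Ccna2 and Exosc9 may not have been told apart.

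Birc5 encodes survivin, a subunit of the chromosomal passenger complex of mitosis (ENSRNOG00000050819, chromosome 10, 106856097 to 106864413). It measured 2.13, 1.21 and 1.87 FPKM in saline and 5.12, 1.62 and 2.48 FPKM in CFA thalamus. The groups overlapped, with CFA library 2 inside the saline range. The log2 change was 0.67 ± 0.44 (adjusted p = 0.431, limma), and 0.23 without CFA library 1.

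Mcm5 and Mcm6 encode subunits of the helicase that opens DNA for replication. Mcm5 (ENSRNOG00000014336, chromosome 19, 14523554 to 14561278) measured 0.731, 0.296 and 0.573 FPKM in saline and 2.46, 1.43 and 1.39 FPKM in CFA thalamus. Mcm6 (ENSRNOG00000003703, chromosome 13, 45042882 to 45068077) measured 1.64, 0.919 and 1.51 FPKM in saline and 4.22, 2.44 and 2.50 FPKM in CFA. Neither gene overlapped between the groups. The log2 change was 1.57 ± 0.40 for Mcm5 and 1.11 ± 0.32 for Mcm6, with adjusted p of 0.106 and 0.15 by limma, and 0.0239 and 0.0261 with all 12 libraries.

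Pcna and Tyms complete the replication members. Pcna encodes the sliding clamp of DNA polymerases, which also serves in DNA repair (ENSRNOG00000021264, chromosome 3, 124880698 to 124884570). RefSeq names several Pcna pseudogenes in the rat, and the sources used here do not say how reads shared with them were assigned. Pcna measured 33.5, 29.5 and 34.8 FPKM in saline and 43.5, 38.0 and 33.8 FPKM in CFA thalamus. The groups overlapped, and the log2 change was 0.23 ± 0.12 with an interval of -0.06 to 0.53 (adjusted p = 0.342, limma). Tyms encodes thymidylate synthase, which makes the thymidine nucleotide for DNA (ENSRNOG00000037225, chromosome 9, 121918947 to 121931564). It was the only member with a lower mean in CFA thalamus, at 5.47, 6.99 and 4.72 FPKM against 5.02, 10.8 and 11.9 FPKM in saline. The groups overlapped because saline library 1 was low, and the log2 change was -0.61 ± 0.35 with an interval of -1.43 to 0.22 (adjusted p = 0.372, limma).

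**Figure D2:**
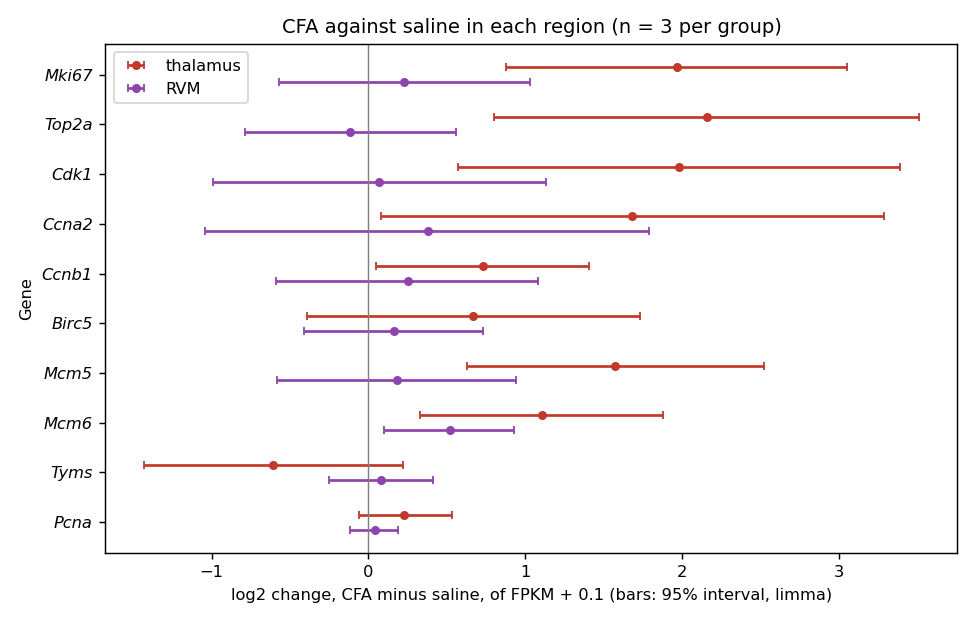
Log2 change of FPKM + 0.1, CFA minus saline, for each gene in thalamus and in RVM (points, limma estimate; bars, 95% interval; n = 3 per group). Thalamic estimates run from -0.61 (Tyms) to 2.16 (Top2a), and RVM estimates lie between -0.12 (Top2a) and 0.52 (Mcm6).

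The libraries of CFA thalamus were ordered alike across members. Library 1 was the highest of the 3 for 9 members, all but Tyms, and 7 members ran in the order library 1, library 3, library 2. In saline thalamus library 2 was the lowest for 8 members and the lowest of all 12 libraries for 7. Without CFA library 1 the log2 changes were 1.57 for Mki67, 1.71 for Top2a, 1.45 for Cdk1, 1.32 for Mcm5 and 0.86 for Mcm6, and without saline library 2 they were 1.73, 1.72, 1.57, 1.27 and 0.87. Summed over 8 members, leaving out Pcna and Tyms, FPKM was 8.13, 4.65 and 7.96 in saline thalamus and 29.4, 11.6 and 15.0 in CFA thalamus.

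Other cell cycle genes were read from the same fit. Of 34 other G2 and mitosis genes tested, 0 passed and 11 were higher at an unadjusted p below 0.05, against 9.95% of all genes. Their log2 changes were positive in 33 of 34, with a median of 0.99 against -0.06 over all genes. In 15 of them every CFA library lay above every saline library, against 12.2% of all genes. The smallest p belonged to Tpx2, a spindle assembly factor, at 1.38 ± 0.28 (adjusted p = 0.0522, limma), followed by Cks2, a subunit bound to Cdk1, at 1.48 and the mitotic kinase gene Pbk at 1.77. All 34 were highest in CFA library 1 among the CFA thalamus libraries. Of 29 other replication and S phase genes, 0 passed and 4 were higher at an unadjusted p below 0.05, against 9.95% of all genes. Their median was 0.24, and 19 of 29 were positive. Mcm3, another helicase subunit, had the smallest p, at 1.62 ± 0.34 (adjusted p = 0.0586, limma), followed by the thymidine kinase gene Tk1 at 0.86 and Mcm4 at 0.59. The median over all genes in thalamus, -0.06 as deposited, became 0.10 with equal FPKM totals and 0.12 with voom, and the thalamic values are to be read against that shift.

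Genes of G1 and of growth signals passed in part. Of 14 G1 cyclins, kinases and pocket proteins, Cdk6, a kinase partner of D-type cyclins, and Myc, a growth transcription factor, passed as higher. Cdk6 went from 0.470, 0.417 and 0.404 FPKM to 1.90, 1.38 and 1.29 FPKM, a log2 change of 1.60 ± 0.28 (adjusted p = 0.0321, limma). Myc went from 0.990, 0.556 and 0.853 FPKM to 2.54, 2.65 and 1.90 FPKM, a log2 change of 1.47 ± 0.29 (adjusted p = 0.0486, limma). Both calls were lost when any 1 of the 6 libraries was left out. Of 12 tested inhibitors of cyclin-dependent kinases and arrest genes, 0 passed. At an unadjusted p below 0.05, 2 were higher, against 9.95% of all genes. The smallest p values there belonged to Btg1 at 0.97, Gadd45a at 0.74 and Cdkn1c at 1.67 (log2, adjusted p of 0.15, 0.215 and 0.273 by limma).

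Of 7 tested genes for microglial growth factors, their receptors and lineage factors, 5 passed as higher and 0 as lower. Csf2rb, a shared chain of cytokine receptors, went from 0.483, 0.711 and 0.363 FPKM to 18.3, 17.8 and 10.9 FPKM (log2 change 4.67 ± 0.30, adjusted p = 0.000908, limma). Csf1r, the receptor on which microglia depend, had a log2 change of 1.68 and its ligand gene Csf1 one of 0.80 (adjusted p = 0.00102 and 0.0394). The myeloid transcription factor genes Spi1 and Irf8 had log2 changes of 2.40 and 3.32. With any 1 library left out 4 passed, and the call of Csf1 was lost.

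**Figure D3:**
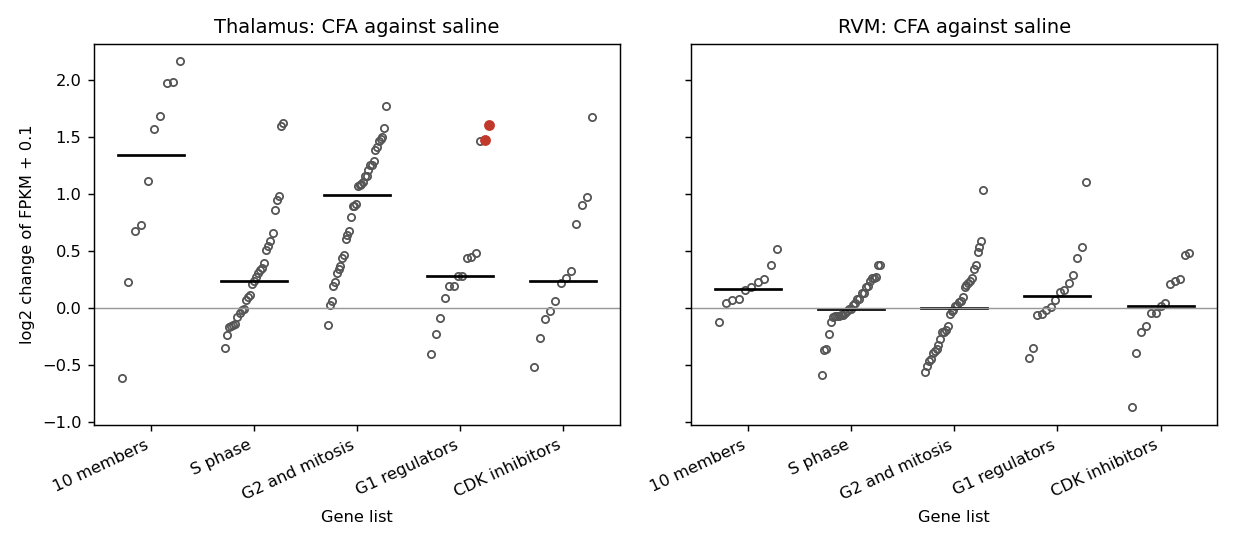
Log2 change of FPKM + 0.1, CFA minus saline, of the 10 proliferation genes and of 4 other cell cycle lists in thalamus (left) and RVM (right). Each circle is a gene, filled red where its adjusted p was below 0.05 (Cdk6 and Myc in thalamus), and bars are list medians, which for G2 and mitosis genes were 0.99 in thalamus and 0.00 in RVM.

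Markers of other cells also differed between the thalamus groups. Summed FPKM of 10 microglia markers was 230 to 267 in saline and 972 to 1326 in CFA thalamus. There 8 of 10 passed as higher, and library 1 was the highest, as for the members. Of its defining genes, Aif1 measured 5.47 to 8.69 FPKM in saline and 33.2 to 42.1 FPKM in CFA, and Cx3cr1 15.2 to 17.5 and 34.1 to 41.9 FPKM. Of 8 tested T and B cell markers 4 passed as higher. Cd3e, Cd3d, Cd3g and Cd8a, at saline means of 0.025 to 0.0856 FPKM, entered the test only through their CFA values. Summed FPKM of the T and B cell markers was 2.63 to 6.75 in saline and 72.5, 15.9 and 20.8 in CFA. That is the members' order of libraries, although Cd4, which rat macrophages also express, made up 54.0 of the 72.5. The T cell gene Cd3e was at most 0.042 FPKM in saline and 1.97, 1.10 and 1.12 FPKM in CFA. Neutrophil and monocyte markers summed to 23.4 to 39.2 FPKM in saline and 572 to 645 FPKM in CFA (5 of 6 tested passed as higher). Lyz2 alone made up 534 to 620 FPKM of the CFA sums. The defining genes were far lower in CFA, S100a8 at 2.19 to 10.6 FPKM and S100a9 at 4.46 to 18.7 FPKM. In saline they were at most 0.331 and 0.354 FPKM. Reactive astrocyte markers summed to 108 to 227 FPKM in saline and 976 to 1630 FPKM in CFA (7 of 7 passed as higher). Of these, Serpina3n had a saline mean of 0.0024 FPKM and also entered the test only through its CFA values. The part of the cell types above in the members' values was not tested.

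**Figure D4:**
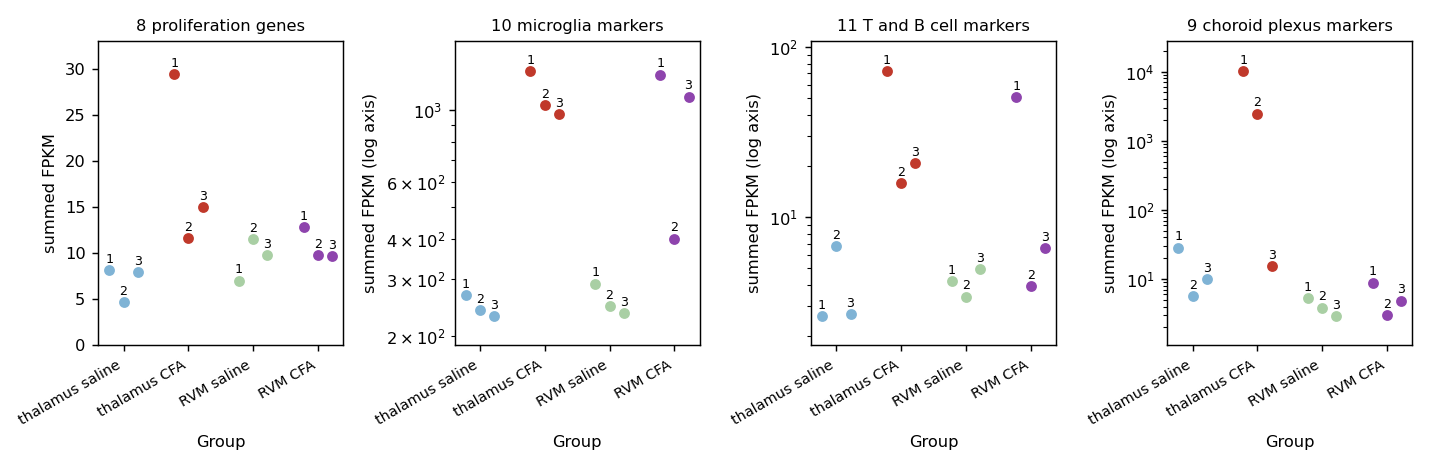
Summed FPKM in each library, numbered by replicate, of 8 proliferation genes (without Pcna and Tyms, linear axis) and of markers of microglia, T and B cells and choroid plexus (log axes). CFA thalamus library 1 is highest in all 4 panels, and RVM CFA libraries 1 and 3 reach 1290 and 1103 FPKM in microglia markers but 12.8 and 9.71 FPKM in the proliferation genes.

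Neighbouring tissue differed between the CFA thalamus libraries as well. Choroid plexus markers summed to 10292, 2470 and 15.4 FPKM in CFA and 5.62 to 28.5 FPKM in saline thalamus, with Ttr, their most abundant, at 9934, 2361 and 5.50 FPKM in CFA. None of the 9 passed. Mural and meningeal markers summed to 269, 106 and 151 FPKM in CFA and 115 to 127 FPKM in saline (0 of 8 passed). Rgs5, their most abundant, was lower in CFA, at 66.3 to 72.8 FPKM against 82.2 to 96.7 FPKM in saline. Col3a1, Col1a1 and Dcn lay wholly above saline, in the members' order of libraries, and the rest overlapped. Col3a1 measured 63.8, 8.25 and 27.98 FPKM in CFA and 6.09, 1.84 and 2.93 FPKM in saline. At an unadjusted p below 0.05, 4 of the 8 were higher and 1 lower, with a median log2 change of 1.72. Ependyma markers summed to 60.9 to 97.3 FPKM in CFA and 32.5 to 74.5 FPKM in saline (0 of 5). Without CFA libraries 1 and 2 together, the log2 changes of the single CFA library left were 1.62 for Mki67, 1.89 for Top2a, 1.70 for Cdk1, 1.30 for Mcm5 and 0.87 for Mcm6, with that library assumed to vary like saline (adjusted p from 0.394 upward, limma). Oligodendrocyte precursor markers summed to 256 to 312 FPKM in saline and 221 to 247 FPKM in CFA (0 of 8 passed), progenitor and neuroblast markers to 9.46 to 19.8 and 9.02 to 13.4 FPKM (0 of 7), and endothelial markers to 32.9 to 34.5 and 33.8 to 37.6 FPKM (0 of 5 tested, with Cldn5 listed at 0 in every library). Thalamic neuron markers summed to 330, 799 and 697 FPKM in saline and 121, 458 and 388 FPKM in CFA (0 of 7 passed). In both groups library 1 had the lowest of these sums. Tyms was lowest in library 1 in saline (5.02 FPKM) but in library 3 in CFA (4.72 FPKM, against 5.47 FPKM in library 1). The part of dissection in the values was not tested.

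In RVM the same comparison left the members near level. None of the 10 passed, and over 19001 genes 0.00526% were called higher and 0.00526% lower. Every CFA library lay above every saline library for 1 member, Mcm6, against 7.16% of all genes. Mcm6 measured 1.52, 1.67 and 1.41 FPKM in saline RVM and 2.62, 2.05 and 2.06 FPKM in CFA RVM, a log2 change of 0.52 ± 0.17 with an interval of 0.10 to 0.93 (unadjusted p = 0.0215, adjusted p = 0.321, limma). It was the 1 member with an unadjusted p below 0.05, a level that 2342 genes reached, and voom likewise called 0 members.

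The mitosis genes overlapped between the RVM groups. Mki67 measured 0.356, 0.551 and 0.397 FPKM in saline and 0.735, 0.408 and 0.462 FPKM in CFA (log2 change 0.23, interval -0.57 to 1.03). Top2a measured 0.663, 0.821 and 0.756 FPKM in saline and 0.953, 0.594 and 0.548 FPKM in CFA (-0.12, interval -0.79 to 0.56). Cdk1 ranged from 0.525 to 1.78 FPKM in saline and from 0.808 to 1.39 FPKM in CFA (0.07, interval -0.99 to 1.13). Log2 changes were 0.25 for Ccnb1, 0.38 for Ccna2, 0.16 for Birc5 and 0.18 for Mcm5. Pcna, at 51.3, 49.4 and 51.9 FPKM in saline and 54.6, 54.2 and 48.1 FPKM in CFA, had a log2 change of 0.04 with the narrow interval of -0.12 to 0.19. Tyms measured 2.70 to 3.11 FPKM in saline and 2.77 to 3.44 FPKM in CFA, a log2 change of 0.08 (interval -0.25 to 0.41).

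Library 1 was the highest of the RVM CFA libraries for 9 members, all but Cdk1. The 8 summed members were at 7.01, 11.5 and 9.75 FPKM in saline and 12.8, 9.80 and 9.71 FPKM in CFA RVM. Microglia markers summed to 235 to 290 FPKM in saline and 1290, 400 and 1103 FPKM in CFA, so libraries 1 and 3 were in the range of CFA thalamus and library 2 was not. T and B cell markers summed to 51.0, 3.92 and 6.61 FPKM in CFA and 3.41 to 4.93 FPKM in saline, but Cd4 alone made up 47.2 of the 51.0. Reactive astrocyte markers followed the same order, at 1741, 667 and 1382 FPKM in CFA against 719 to 826 FPKM in saline. Without RVM CFA library 2, 433 genes were called in place of 2, and still 0 members, with an adjusted p of 0.241 for Mcm6. In the wider lists 0 genes passed: 29 replication and S phase genes had a median log2 change of -0.01, and 32 G2 and mitosis genes one of 0.00, against -0.02 over all genes. The smallest p values in these lists belonged to Rpa2 at 0.24, Ccne2 at -0.23 and Mcm4 at 0.18, and to Ttk at 1.03, Aurka at 0.49 and Cdc20 at -0.46. Among G1 genes these were Myc at 1.10, Ccnd2 at -0.35 and E2f3 at -0.44, and among inhibitors Cdkn1c at -0.87, Cdkn1a at -0.39 and Gadd45a at -0.16. Of the microglial growth genes, Csf2rb had a log2 change of 3.30, Irf8 of 2.33 and Csf1r of 1.20, each with an adjusted p of 0.262 by limma.

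Whether the CFA effect differs between the regions was tested as an interaction in a fit of all 12 libraries. No member passed, and over 18197 genes 0.0% were called in the higher direction and 0.0% in the lower, with 1945 genes at an unadjusted p below 0.05, and voom called 0 members. At that unadjusted level 4 members had a larger thalamic effect. The difference of log2 changes was 1.74 for Mki67 (interval 0.51 to 2.97), 2.27 for Top2a (0.82 to 3.72), 1.91 for Cdk1 (0.15 to 3.67) and 1.40 for Mcm5 (0.25 to 2.54). Their adjusted p values were 0.375, 0.359, 0.443 and 0.404 by limma. For Mcm6 the difference was 0.59 (interval -0.23 to 1.41), for Pcna 0.19 (-0.12 to 0.50) and for Tyms -0.69 (-1.56 to 0.19). Of the other lists, 0 genes passed. Unadjusted p was below 0.05 for 8 of 32 G2 and mitosis genes, led by Tpx2 at 1.28, Bub1 at 1.55 and Nusap1 at 1.90. Among replication genes 2 of 29 reached that level, in the higher direction. Over all 18197 genes, 1006 were higher and 939 lower at that level. The smallest p values of the replication genes belonged to Mcm3 at 1.24, Rrm1 at 0.29 and Rpa2 at -0.38, with Rpa2 not below 0.05. Among the G1, inhibitor and growth factor genes the smallest p values belonged to Cdk6 at 1.16, Cdkn1c at 2.54 and Csf1 at 0.95 (adjusted p of 0.393, 0.381 and 0.241 by limma).

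Between the regions in saline, 2 members passed, in opposite directions. Pcna was lower in thalamus, at 32.6 ± 2.76 FPKM (SD, n = 3) against 50.9 ± 1.32 FPKM in RVM, a log2 difference of -0.64 ± 0.08 (SE, adjusted p = 0.00156, limma). Tyms was higher in thalamus, at 9.24 ± 3.70 FPKM against 2.97 ± 0.23 FPKM, a log2 difference of 1.51 ± 0.32 (adjusted p = 0.0112, limma). Over 19240 genes, 18.0% were called higher and 17.5% lower in thalamus. Both calls held in each of the 17 alternatives, between -0.69 and -0.46 for Pcna and between 1.29 and 1.90 for Tyms. Thalamic neuron markers summed to 330 to 799 FPKM in saline thalamus and 77.8 to 95.7 FPKM in saline RVM. Hindbrain markers summed to 0.53 to 1.09 and 131 to 157 FPKM (Hoxa3 listed at 0 in every library). Of the other members, the log2 difference ran from -0.89 for Cdk1 (interval -2.20 to 0.41) to 0.16 for Ccnb1 (-0.74 to 1.07), and 7 of these 8 were negative.

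Over all genes 35.5% were called between the regions in either direction, against 28.6% of the replication and S phase genes, 9.38% of the G2 and mitosis genes, 28.6% of the G1 genes, 41.7% of the inhibitor and arrest genes and 28.6% of the growth factor genes. The calls in these lists are given as a description. Of 28 tested replication and S phase genes, 8 were lower in thalamus and 0 higher, with Ccne2 (cyclin E2) at -0.91, Chaf1b at -1.05, Prim1 at -1.03, Dut at -0.47 and Rfc3 at -0.65 having the smallest p. Chaf1b encodes a chromatin assembly subunit, Prim1 a primase subunit, Dut the enzyme that clears dUTP, and Rfc3 a loader of the Pcna clamp. With equal FPKM totals 3 genes of the list were called lower and 1 higher, and over all genes the split moved from 3459 higher and 3373 lower to 4793 and 2109. Of 32 G2 and mitosis genes, Anln was lower by far, at 8.45 to 10.9 FPKM in thalamus against 37.5 to 53.9 FPKM in RVM (-2.18 ± 0.16, adjusted p = 0.000251, limma). Anln encodes anillin, a scaffold of cytokinesis, and its call held in all 17 alternatives. In saline RVM the members Mki67 and Top2a measured only 0.356 to 0.551 and 0.663 to 0.821 FPKM. Whether Anln reports dividing cells here was not tested. Spc25, a kinetochore gene, was lower at -1.27, and Mad2l1, a checkpoint gene, higher at 0.48. The call of Mad2l1 was lost in 9 of 17 alternatives, and that of Spc25 in 7 of the 15 that tested it. Of 14 G1 genes, E2f4 was higher at 0.57, and Cdk4, Ccnd1 and Cdc25b were lower at -0.39, -0.37 and -0.48, calls that were lost with equal totals and in 4, 8 and 6 of the 17 alternatives in all. Of 12 inhibitor and arrest genes, Gadd45a, Cdkn1c and Ccng2 were lower at -1.22, -2.20 and -0.51, and Ccng1 and Cdkn1a higher at 0.68 and 1.09, whereas with equal totals 4 genes of the list were higher and 2 lower. Of the growth factor genes Csf1 was lower at -1.04 and Il34, the other ligand of Csf1r, higher at 0.69.

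Genes outside the members that followed them most closely were ranked over the 12 libraries by Pearson's r with the members' mean z-score of log2(FPKM + 0.1), among 14471 named protein-coding genes. The first 5 were Kif22 (r = 0.948), Rcn3 (0.94), Pcolce (0.938), Pbk (0.935) and Tmem71 (0.929). This is a description over libraries that share their depth and tissue, with no test. Kif22, a mitotic kinesin, measured 0.952 to 1.31 FPKM in saline thalamus and 4.11, 1.498 and 2.146 FPKM in CFA thalamus. Pcolce, an enhancer of procollagen processing, measured 1.21 to 2.21 FPKM in saline and 9.87, 3.15 and 3.59 FPKM in CFA thalamus. Rcn3, of the endoplasmic reticulum, measured 4.598 to 6.122 FPKM and 17.8, 6.72 and 8.99 FPKM. As the ranking favours, all 5 had the order library 1, library 3, library 2 in CFA thalamus.

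Depth was even. Each library held 14.94 to 19.24 M reads assigned to genes (14944794 to 19243108). Counts of replicates were further apart than sampling noise in each of 12 pairs, so no replicate of a group was taken as a copy of another. The extraction protocol mentions retinas, and 8 retina markers summed to at most 1.79 FPKM in any library.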

How the data were processed

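RNA sequencing of rat thalamus and RVM was analysed from a single table of FPKM values that the authors deposited, with gene length, coordinates and biotype per the file headers. Extraction with Trizol and library preparation with a TruSeq RNA kit are stated per the labels' protocols. The sources used here name no aligner, counter, genome build or annotation, so gene coordinates are as the table lists them. FPKM times gene length was a whole multiple of 1 step per library for 100% of values (tolerance 0.01), which gave the reads. The authors' library totals were 0.9335 to 1.168 times the recovered totals, a further scaling of the deposited FPKM. That scaling followed the groups. In thalamus the ratio was 1.168, 1.109 and 1.109 in CFA and 1.0415, 0.9609 and 0.9892 in saline, and in RVM it was 0.9335 to 0.9893. The deposited FPKM is thus scaled down most in CFA thalamus.

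Tissue and treatment labels set the groups. The main fit used limma 3.58.1 (R 4.3.3, empirical Bayes with a trend) on log2(FPKM + 0.1). A gene entered when its mean reached 0.1 FPKM in the fitted libraries, or in both regions for the interaction. A gene below that level in saline could thus enter through its CFA values alone, as Cenpf, Knl1, Mcm10 and Hells also did in thalamus. Log2 changes on this scale understate the change of low genes. Benjamini-Hochberg adjusted p below 0.05 was called, and intervals are at 95%.

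The members and gene lists were chosen with earlier results of these data known. All 10 members were named in each comparison. Of the 5 pathway lists, up to 5 genes per direction were named among those called, otherwise the 3 with the smallest p. Of 13 marker lists the sums were named, and the first 2 genes of each were eligible. The 5 genes with the closest pattern were named by Pearson's r. Cd4, Lyz2, Col1a1, Col3a1, Dcn, Olig1 and Vcan were added after their values were seen. Of 208 listed symbols 200 matched the table, and the other 8 were not analysed here.

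On simulated data the fits gave nearly every changed gene its direction. The fit of log2 FPKM made more false calls than the nominal rate in all 4 comparisons, and the limit allowed for false calls in that check was raised after it was first exceeded, so single calls near the threshold are less certain than their adjusted p. Limma-voom on the recovered reads was run beside it. Other alternatives were another pseudocount, other filters, 3 rescalings, robust empirical Bayes, a replicate block, all 12 libraries in 1 model and leaving out libraries. The fit without RVM CFA libraries 1 and 3 was added after the data were seen.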

Additional observations from a re-analysis of the deposited data

How the results depend on the processing

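No member passed in RVM or in the difference of effects under any of the 18 and 25 alternatives run, and Pcna and Tyms passed between regions in all 17. In thalamus 18 of 19 alternatives called 0 members and the fit of all 12 libraries called 5. The samples share only replicate numbers (same-number correlations of 0.317, 0.014 and 0.236 in thalamus and -0.021, 0.003 and 0.02 in RVM, and across regions 0.14, 0.035 and -0.015 in saline and 0.188, 0.053 and -0.021 in CFA). Not every library matched its own number best, and the labels do not say whether thalamus and RVM libraries of 1 number share a rat. With the replicate block, 1218 genes were called in thalamus in place of 701, 1 in RVM in place of 2, and still 0 members in either or in the difference. Between regions the block called 5819 genes in place of 6832, with Pcna and Tyms among them. In thalamus, genes called were 1950 with all 12 libraries, 366 to 635 with 1 library left out, and 0 without CFA libraries 1 and 2, where the microglial growth genes also went from 5 calls to 0. S phase genes called were 1 with equal totals, 1 with the block and 2 with all 12 libraries. G2 and mitosis genes called were 1 with equal totals, median-of-ratios, voom or the block, and 2 with all 12 libraries. Of the 2 G1 calls, 0 were left with 1 library left out, no filter, a filter at 1 FPKM with either pseudocount, quantile normalization, the block, or without either pair of libraries, 1 with robust empirical Bayes, and 4 genes passed with all 12 libraries. Inhibitor genes called were 0 to 1 with 1 library left out, 1 with all 12 libraries and 1 without saline 1 and CFA 1.

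In RVM, genes called were 0 to 433 with 1 library left out (433 without CFA library 2, with 4 growth genes and 1 G1 gene), 0 with pseudocount 1, a filter at 1 FPKM, both, quantile normalization, voom or without CFA libraries 1 and 3, 1 without a filter, and 11 with all 12 libraries. Without CFA libraries 1 and 3, log2 changes turned to -0.06 for Mki67, -0.02 for Ccna2, -0.04 for Birc5 and -0.09 for Tyms. With 1 library left out, the sign turned for Top2a (-0.33 to 0.02), Cdk1 (-0.40 to 0.39), Ccnb1 (-0.13 to 0.58), Ccna2 (-0.21 to 0.74), Birc5 (-0.09 to 0.31) and Mcm5 (-0.03 to 0.45). For the difference, genes called were 0 to 4 with 1 library left out, 8 without a filter, 86 without thalamus saline 1 and CFA 1, and 109 without RVM CFA libraries 1 and 3, with 3 growth genes. Between regions, S phase calls were 4 with equal totals or the block and 2 to 8 with 1 library left out. G2 and mitosis calls were 1 without a filter, 5 with all 12 libraries and 1 to 2 with 1 left out. G1 calls were 1 with equal totals, 2 with voom and 1 to 5 with 1 left out, and inhibitor calls 3 to 8. The sign turned with 1 left out for Ccnb1 (-0.21 to 0.49), Ccna2 (-0.93 to 0.07) and Mcm6 (-0.35 to 0.04). The causes were not tested. Members on as few as 5 reads limit what can be detected at this depth.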

Other observations

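Set against the microglia markers, the members did not keep a fixed proportion. The summed FPKM of 8 members (without Pcna and Tyms) was 3.04%, 1.94% and 3.46% of the microglia marker sum in saline thalamus and 2.22%, 1.12% and 1.54% in CFA thalamus. In RVM it was 2.42%, 4.65% and 4.14% in saline, and 0.995%, 2.45% and 0.881% in CFA. The lowest of the 12 values were in RVM CFA libraries 1 and 3, whose microglia sums were 1290 and 1103 FPKM. These are values of whole tissue, described with no test.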
